A study of Mus musculus with 12 samples.

Results

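Mbp, Sox10, S100b, Ngfr, Th and Dbh are used as markers of nerves in the outer coat of an artery and of their Schwann cells. Npy1r encodes a receptor on the cells that these nerves act on. Which cells the RNA of these genes came from in this tissue was not tested. All were taken by gene symbol from the authors' count table, where they are 7 of 27933 genes. Their RNA was followed in thoracic aortas, the chest part of the main artery, which had been cleaned of fat tissue and frozen. All mice were C57BL/6J and 8 months old when sampled, and each group had breathed its vapor or air for 12 weeks from 5 months of age. The 4 groups of 3 libraries were alpha7-nAChR KO mice with nicotine vapor (KO nicotine, libraries 3, 4 and 5), alpha7-nAChR KO mice with room air (KO air, libraries 1, 2 and 7), wild-type mice with nicotine vapor (WT nicotine, libraries 6, 11 and 12) and wild-type mice with room air (WT air, libraries 8, 9 and 10). The alpha7 nicotinic acetylcholine receptor, nAChR, is an ion channel encoded by Chrna7, and the labels do not describe how the gene was disrupted. They also do not say whether each library is a separate mouse, so the p-values below reflect how far libraries of a group lie apart, which may be technical in part.

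Sympathetic axons run through the outer coat of arteries and release noradrenaline together with neuropeptide Y, which tighten the vessel by acting on its smooth muscle. Th and Dbh encode tyrosine hydroxylase and dopamine beta-hydroxylase, enzymes of noradrenaline synthesis, and Npy1r encodes the Y1 receptor for neuropeptide Y on the receiving cell. The cell bodies of these neurons, where most of their mRNA is held, lie in ganglia outside the vessel. Schwann cells ensheath the axons within the artery: Sox10 encodes a transcription factor of the glial lineage, Mbp a protein of compact myelin, Ngfr a receptor for neurotrophins, and S100b a calcium-binding protein of glia that fat cells are also known to make.

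Promoter sequences are shown for Npy1r, the most abundant of these genes, S100b, which had the steepest slope on fat cell markers, and Th, which was nearly absent. Each is the 250 bases before the gene's start in RefSeq's GRCm38.p6 table, read 5′ to 3′ on the gene's strand, with matches to the searched motifs in capitals. The table held 5 of the 7 genes, and not Sox10 or Mbp. The lines run from chr8:66697172-66697421 (plus strand) for Npy1r, chr10:76253586-76253835 (plus strand) for S100b and chr7:142899996-142900245 (minus strand) for Th.
Npy1r: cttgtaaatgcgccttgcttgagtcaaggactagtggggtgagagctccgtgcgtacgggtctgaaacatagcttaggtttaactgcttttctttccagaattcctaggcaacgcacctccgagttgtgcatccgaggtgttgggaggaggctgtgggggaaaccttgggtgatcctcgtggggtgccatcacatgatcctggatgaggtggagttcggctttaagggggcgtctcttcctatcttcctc
S100b: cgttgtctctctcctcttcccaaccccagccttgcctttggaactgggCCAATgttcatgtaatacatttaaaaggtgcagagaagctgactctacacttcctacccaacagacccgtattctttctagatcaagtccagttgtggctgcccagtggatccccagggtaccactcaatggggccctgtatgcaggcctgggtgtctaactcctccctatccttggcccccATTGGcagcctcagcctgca
Th: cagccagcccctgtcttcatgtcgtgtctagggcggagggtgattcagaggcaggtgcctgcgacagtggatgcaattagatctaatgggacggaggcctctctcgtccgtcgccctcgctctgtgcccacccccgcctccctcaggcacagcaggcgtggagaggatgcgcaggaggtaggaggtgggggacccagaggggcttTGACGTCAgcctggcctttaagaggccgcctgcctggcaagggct
The search took 6 motifs on both strands: TATAAA (the TATA box), CCAAT, TGACGTCA (the cyclic AMP response element), ACAAAG and ACAATG (cores bound by SOX factors) and AGGTCA (a nuclear receptor half-site). Among 32851 promoters of the same length, 12.4% held TATAAA, 33.8% CCAAT, 1.55% TGACGTCA, 16.5% ACAAAG, 10.7% ACAATG and 14.0% AGGTCA. The Th promoter held TGACGTCA 45 bases before the start. In the S100b promoter CCAAT lay 202 bases before the start, and again on the other strand at 20 bases. The Dbh promoter, not printed, held CCAAT at 150 bases, and the windows of Npy1r and Ngfr held none of the 6 motifs. A match is a description of these letters and not evidence of a bound site.

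The tissue held abundant Npy1r RNA, moderate Mbp and S100b, little Sox10 and Ngfr, and almost no Th or Dbh. On CPM (each count as a share of 1e6 counts of its library, scaled between libraries by TMM) divided by exon length in kilobases, the mean level over all 12 libraries was 22.2 for Npy1r, 8.85 for S100b, 2.02 for Mbp, 0.675 for Sox10 and 0.233 for Ngfr. The same measure was 0.0219 for Th and 0.00858 for Dbh, against 4677 for Acta2, the smooth muscle actin of the vessel wall. Mag, a myelin-associated adhesion protein, had 18 counts in all, spread over 6 libraries. Of the nerve genes, Npy1r, a receptor of the target cell, was well measured, while Th, Dbh and the neuropeptide Y gene Npy (6 counts in all) were close to 0. In bulk RNA, fewer cells of a type and less RNA per cell cannot be told apart.

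**Figure D1:**
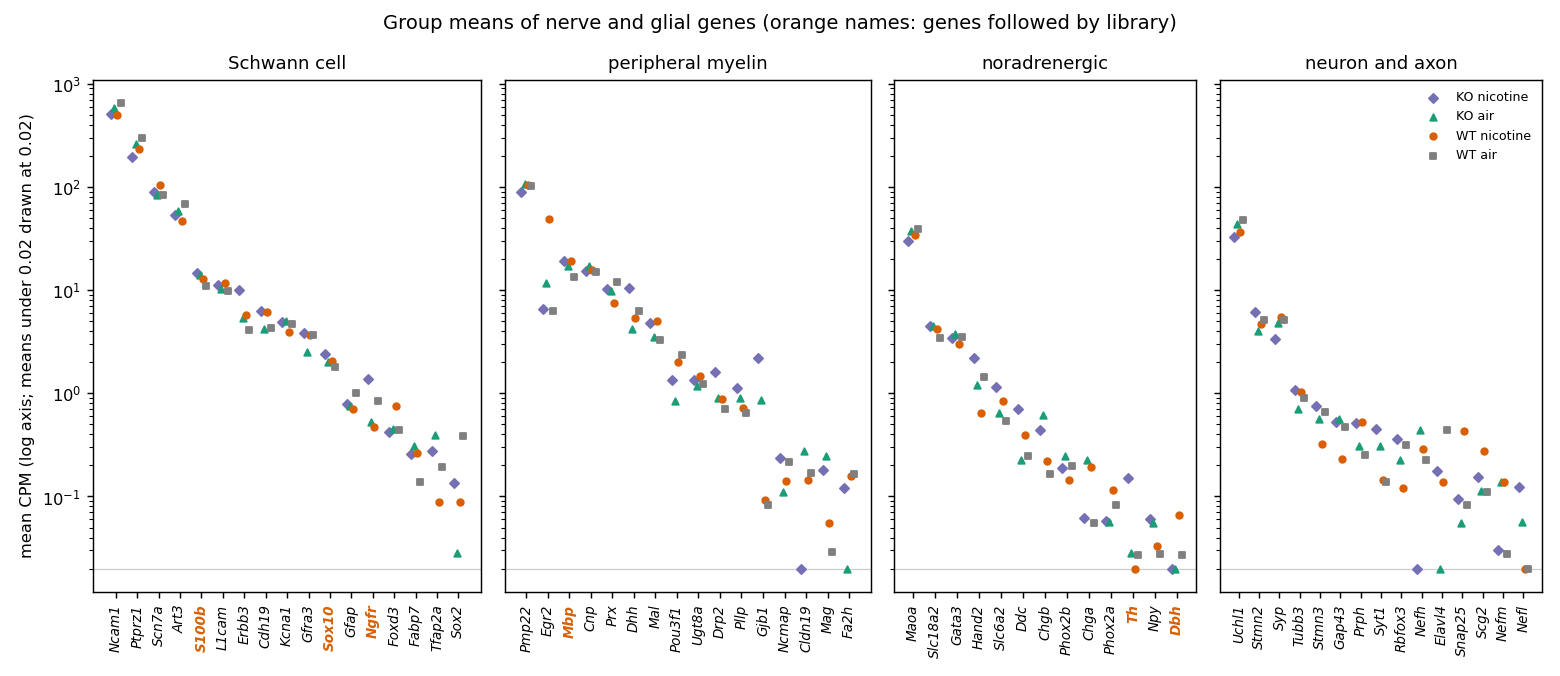
Mean CPM (log axis) of genes on the Schwann cell, peripheral myelin, noradrenergic and neuron lists in the 4 groups, each symbol a mean of 3 libraries, with names in orange for Sox10, S100b, Ngfr, Mbp, Th and Dbh. S100b and Mbp lie in the upper part of their lists and Sox10 and Ngfr lower. On the noradrenergic list Dbh lies at the bottom and Th near it, above Npy.

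Library totals lay between 10240031 counts in WT nicotine 6 and 12628323 in WT air 9. Chrna7 had 8 to 28 counts in the libraries labelled KO and 9 to 37 in those labelled WT, so these counts do not check the genotype. Fat markers differed widely: the summed CPM of 11 adipocyte genes was 3416 to 9831 with nicotine and 3288 to 6188 with air in KO mice, and 5459 to 6965 with nicotine and 1523 to 6229 with air in WT mice. All 11 of these genes had a log2 fold change above 0 with nicotine in both genotypes, with a median of 0.63 in KO and 0.75 in WT, and none passed the test. Skeletal muscle markers summed to 222 CPM in KO nicotine 3 and to 25.8 to 64.3 CPM in the other libraries.

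None of the 5 genes with enough counts to be tested passed edgeR's test in any comparison of groups. Th and Dbh failed the filter on low counts. A gene was called when its edgeR p, adjusted by Benjamini-Hochberg over all 14621 genes tested, was under 0.05. The background for that count was low in every comparison. For nicotine against air, the share of all genes called was 0% in KO, 0.0205% in WT, 0% for the difference between the genotypes and 0% averaged over them. For KO against WT it was 0.00684% in nicotine, 0% in air and 0% averaged over the exposures. DESeq2 called none of the 5 genes either. At an unadjusted edgeR p under 0.05 the only gene was Npy1r, in KO against WT in air and averaged over the exposures. That number changed when single libraries were left out or a covariate for fat cell transcripts was added. Without WT air 8 it was 3 genes for KO against WT in air, beside 1058 of 14993 genes tested. For nicotine against air in WT it was then 2, beside 2433 of 14993. For KO against WT in air it was 0 without WT air 9, WT air 10 or KO air 2. With the fat cell covariate, described below, it was 2 genes for nicotine averaged over genotypes, beside 841 of 14621. For KO against WT in nicotine it was then 1, beside 1636 of 14621. At that unadjusted threshold the share of all genes for KO against WT was 8.34% in nicotine, 4.36% in air and 8.41% averaged. For nicotine against air it was 4.58% in KO, 9.84% in WT, 4.43% for the difference between the genotypes and 10.9% averaged.

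Mbp, the myelin basic protein gene, overlapped between nicotine and air libraries in both genotypes. In KO nicotine 3, 4 and 5 it had 19.6, 25.2 and 12.4 CPM, and in KO air 1, 2 and 7 it had 14.5, 18.4 and 18.1 CPM. In WT nicotine 6, 11 and 12 it had 20.8, 20.0 and 16.6 CPM, and in WT air 8, 9 and 10 it had 18.8, 7.82 and 13.1 CPM. The lowest library, WT air 9, was also the library with the fewest adipocyte transcripts, and the highest, KO nicotine 4, the one with the most. The nicotine against air log2 fold change of Mbp was 0.16 ± 0.29 (SE) in KO and 0.53 ± 0.30 in WT, with an edgeR adjusted p of 0.938 in KO and 0.581 in WT. The 95% intervals ran from -0.47 to 0.80 in KO and from -0.11 to 1.17 in WT, so the KO interval holds the value seen in WT. With a covariate for fat cell transcripts (an adipocyte score, the mean log2 CPM of 11 fat cell genes), these log2 fold changes became -0.19 in KO and -0.0031 in WT. Mbp is overlapped by the pseudogene Rpl21-ps8 and by Gm52337 in RefSeq, and the library kit named in the labels does not mark strand, so some of its counts could belong to them.

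S100b ran from 4.28 to 22.8 CPM, and its spread lay within the groups rather than between them. It had 10.1, 22.8 and 10.8 CPM in KO nicotine 3, 4 and 5, against 8.66, 20.6 and 12.7 CPM in KO air 1, 2 and 7. In WT nicotine 6, 11 and 12 it had 13.1, 13.4 and 12.3 CPM, against 20.1, 4.28 and 8.78 CPM in WT air 8, 9 and 10. A high library stood out in KO nicotine, in KO air and in WT air, while the WT nicotine libraries lay close together. The nicotine against air log2 fold change was 0.06 ± 0.51 in KO and 0.23 ± 0.52 in WT, and its sign turned in both with the adipocyte covariate, to -0.42 in KO and -0.49 in WT.

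Sox10, the transcription factor that defines the glial lineage, averaged 2.37 CPM in KO nicotine, 1.99 CPM in KO air, 2.07 CPM in WT nicotine and 1.80 CPM in WT air. It had 2.65, 2.86 and 1.62 CPM in KO nicotine 3, 4 and 5, against 1.78, 1.71 and 2.47 CPM in KO air 1, 2 and 7. It had 3.24, 1.01 and 1.96 CPM in WT nicotine 6, 11 and 12, against 1.91, 1.07 and 2.42 CPM in WT air 8, 9 and 10. The WT nicotine group held both the highest and the lowest of the 12 libraries. The nicotine against air log2 fold change was 0.25 ± 0.47 in KO and 0.19 ± 0.47 in WT. These intervals reach 1.26 in KO and 1.21 in WT, so a doubling of Sox10 lies inside both.

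Ngfr, the neurotrophin receptor gene, was measured from at most 22 reads a library. Its counts were 22, 16 and 7 in KO nicotine 3, 4 and 5, against 2, 7 and 10 in KO air 1, 2 and 7. They were 0, 8 and 9 in WT nicotine 6, 11 and 12, against 18, 7 and 5 in WT air 8, 9 and 10. The mean was 1.37 ± 0.735 CPM in KO nicotine and 0.531 ± 0.332 CPM in KO air (SD, n = 3 each), and the ranges overlapped. In WT the order of the means was the other way, with 0.468 ± 0.407 CPM in WT nicotine and 0.848 ± 0.627 CPM in WT air (SD, n = 3 each). The log2 fold changes were 1.34 ± 0.87 in KO and -0.80 ± 0.89 in WT, and the difference between the genotypes was 2.14 ± 1.24 (edgeR adjusted p = 0.999). Without WT air 8, the highest WT library, the log2 fold change in WT was 0.00049 and the difference 1.34. Without WT nicotine 6, which had 0 counts, they were -0.25 and 1.59. The difference between KO and WT in nicotine was 1.48 ± 0.88 on the log2 scale, with an edgeR adjusted p of 0.724.

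**Figure D2:**
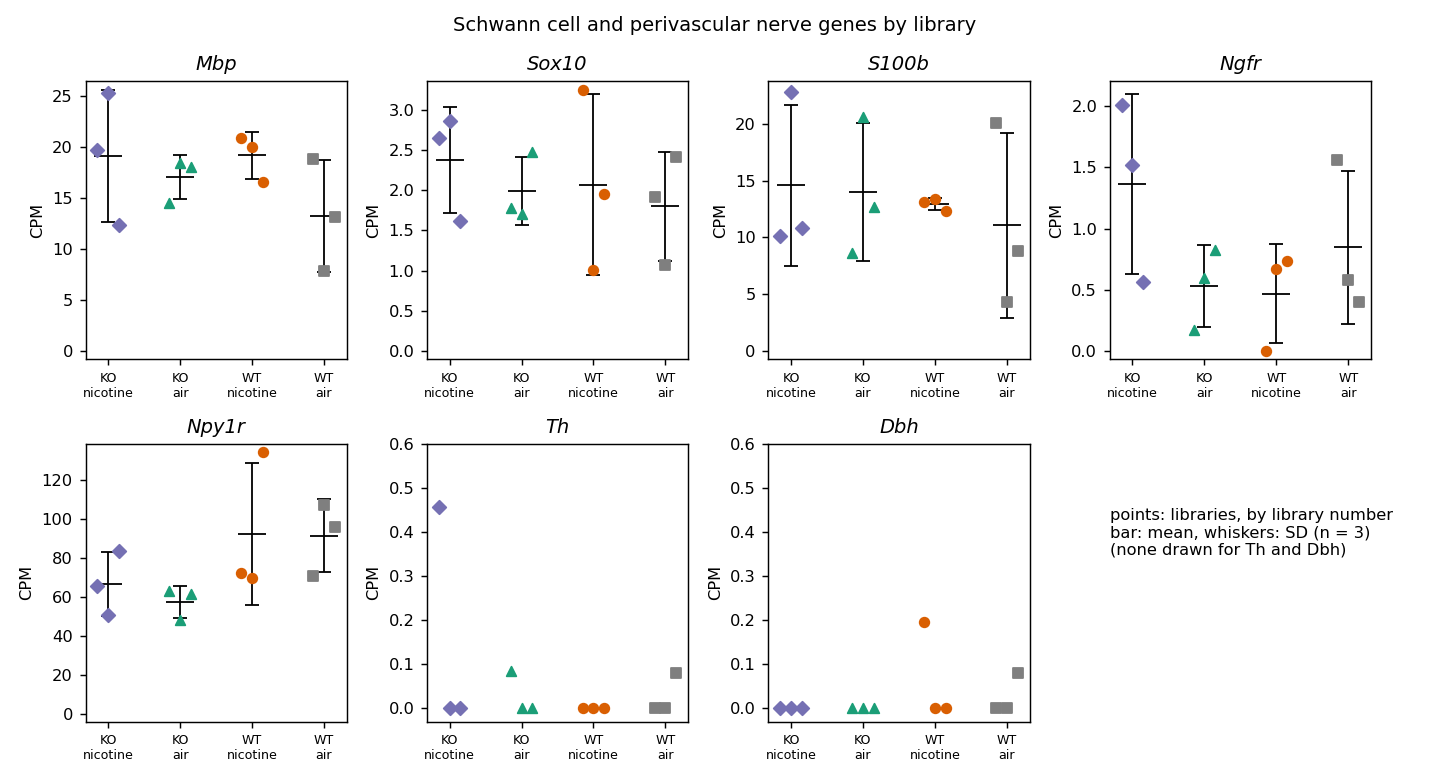
CPM of the 7 genes in each library, grouped as KO nicotine, KO air, WT nicotine and WT air, with the mean and SD of 3 libraries for every gene but Th and Dbh. The only gene and contrast without overlap is Npy1r in air, where the KO libraries reach 62.9 CPM at most and the WT libraries start at 70.5 CPM. Of all genes tested, 11.8% were without overlap in that contrast.

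Npy1r, the receptor gene, had lower means in the libraries labelled KO than in WT, and the difference missed the threshold across all genes. It had 65.5, 50.6 and 83.5 CPM in KO nicotine 3, 4 and 5, against 72.1, 69.8 and 134 CPM in WT nicotine 6, 11 and 12. In room air it had 62.9, 48.1 and 61.4 CPM in KO air 1, 2 and 7, against 70.5, 107 and 96.0 CPM in WT air 8, 9 and 10. All 3 KO air libraries lay below all 3 WT air libraries, a separation in either direction that 11.8% of all genes tested showed in the same comparison. In nicotine the groups overlapped through KO nicotine 5, and 11.4% of all genes were without overlap. For nicotine against air, where each of the 7 genes overlapped in both genotypes, that share was 10.6% in KO and 13.2% in WT.

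In room air Npy1r differed between KO and WT by a log2 fold change of -0.67 ± 0.27, with an edgeR unadjusted p of 0.0301 and an adjusted p of 0.995. The edgeR unadjusted p was 0.101 without WT air 9, 0.0690 without WT air 10 and 0.0987 without KO air 2. In nicotine it was -0.47 ± 0.27 (edgeR adjusted p = 0.715). Averaged over both exposures it was -0.57 ± 0.19, with a 95% interval from -0.98 to -0.15, an edgeR unadjusted p of 0.0121 and an adjusted p of 0.472. It remained below 0 without any single library, from -0.67 without KO nicotine 5 to -0.38 without WT nicotine 12, the highest library. With the adipocyte covariate it was -0.49 ± 0.14. The library numbers nearly separate the genotypes, and their meaning is not stated. A difference tied to that numbering and a difference of genotype cannot be told apart here.

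No difference in Npy1r between nicotine and air passed the test in either genotype. The nicotine against air log2 fold change was 0.21 ± 0.27 in KO and 0.01 ± 0.27 in WT, with 95% intervals of -0.38 to 0.80 in KO and -0.57 to 0.60 in WT. The difference between these effects was 0.20 ± 0.38 (edgeR adjusted p = 0.999). Other receptors of this family had few counts over the 12 libraries: Npy4r had 83, Npy2r had 5, Npy5r, the neighbouring gene of Npy1r, had 1, and Npy6r had 0.

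Differences between the genotypes in the glial genes were within the spread of the libraries. The KO against WT log2 fold change averaged over exposures was 0.18 ± 0.21 for Mbp, 0.26 ± 0.36 for S100b, 0.17 ± 0.33 for Sox10 and 0.41 ± 0.62 for Ngfr. The lowest edgeR adjusted p among these was 0.864, for Mbp.

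**Figure D3:**
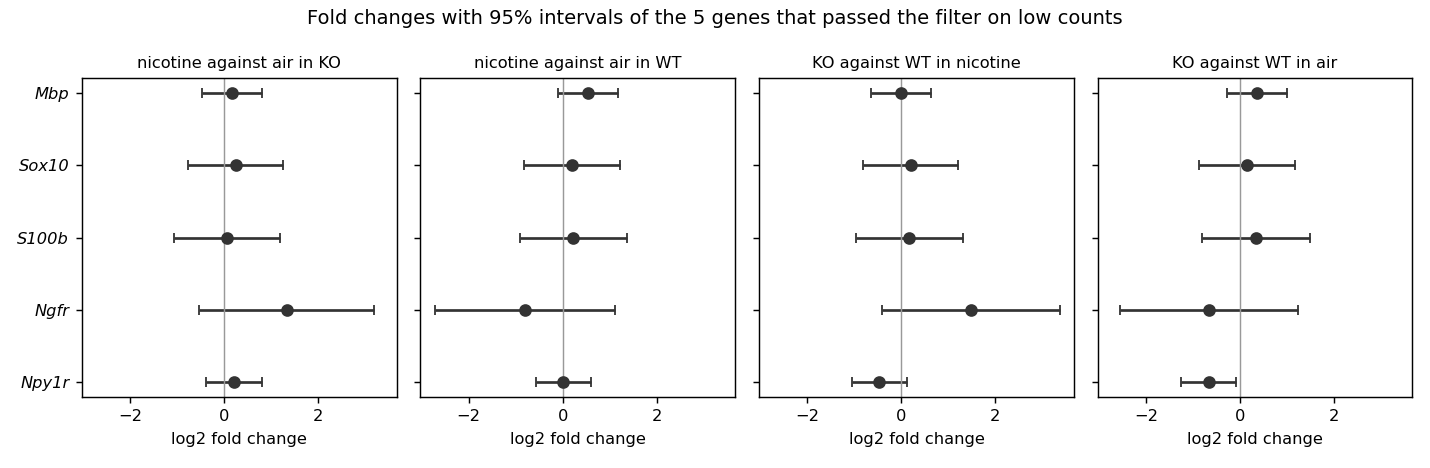
Log2 fold changes of the 5 tested genes (points) with 95% intervals (bars) for nicotine against air in KO and in WT and for KO against WT in nicotine and in air. Every interval spans 0 but that of Npy1r in KO against WT in air (-1.26 to -0.077), which was not adjusted for the number of genes tested.

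Th and Dbh, the enzymes of noradrenaline synthesis, were at or near 0 in all groups. Th had 5 counts in KO nicotine 3, 1 count in KO air 1 and 1 count in WT air 10, and 0 in the other 9 libraries. Dbh had 2 counts in WT nicotine 6 and 1 count in WT air 10, and 0 in the other 10 libraries. A count of 0 allows up to 0.242 to 0.295 CPM, depending on the library (3 counts per library, for counting error only). No fold change is given for either gene, because all groups are at or near that floor.

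The library with most Th counts also held most counts of 3 of the 8 adrenal genes examined. KO nicotine 3 had the 4 counts of Cyp11b1 and the 5 counts of Cyp11b2 found in the 12 libraries, and 10 of the 17 counts of Cyp21a1. These 3 genes encode enzymes of steroid hormone synthesis in the adrenal cortex. It also had 16 of the 53 counts of Ddc, the decarboxylase that acts after Th, while Pnmt, which makes adrenaline in the adrenal medulla, had 1 count there and 0 to 7 elsewhere. The other adrenal genes were more widely spread. Star had 50 counts in KO nicotine 3 and 90 in KO air 7, and Hsd3b1 had 1 and 2. Cyp11a1 was found in 11 libraries and Mc2r in 9. The summed CPM of 8 adrenal genes was 6.95 in KO nicotine 3 and 2.16 to 9.07 in the other libraries, most of it from Star. The part of these transcripts in the Th count was not tested.

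Other noradrenergic genes were present at a low level. Slc6a2, the noradrenaline transporter of sympathetic nerve endings, averaged 0.791 CPM and was found in all 12 libraries. Slc18a2, the vesicular monoamine transporter, averaged 4.15 CPM, and Gata3, a transcription factor of sympathetic neurons also made by other cells, 3.43 CPM. Maoa, an enzyme that breaks down noradrenaline in many cell types, averaged 35.0 CPM. Of 14 noradrenergic genes, 6 were tested and none was called in any comparison. Their median log2 fold change with nicotine was -0.050 in KO and -0.094 in WT, beside 0.0095 in KO and -0.0047 in WT over all genes.

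Across libraries of the same group, Mbp and S100b were higher where fat cell transcripts were higher. An adipocyte score, the mean log2 CPM of 11 fat cell genes that include none of the 7, was 8.30, 9.03 and 7.44 in KO nicotine 3, 4 and 5, against 7.46, 8.24 and 7.56 in KO air 1, 2 and 7. It was 8.37, 8.39 and 8.20 in WT nicotine 6, 11 and 12, against 8.36, 6.34 and 7.16 in WT air 8, 9 and 10. The slope of each gene's level on this score was fitted with the 4 group means in the model, so that it rests on differences between libraries of the same group. Mbp had a slope of 0.60 ± 0.10 log2 units per unit of score (edgeR adjusted p = 0.00114), and S100b had a slope of 0.95 ± 0.14 (edgeR adjusted p = 0.000317). Both passed when any single library was left out. Thus 2 of the 5 tested genes passed, beside 9.62% of all genes tested, 893 of which had a positive and 513 a negative slope. This comparison was chosen after the data had been seen. The cause of the shared variation was not tested.

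The other glial genes did not pass the same test. Sox10 had a slope of 0.33 ± 0.32 (edgeR adjusted p = 0.634) and Ngfr had a slope of 0.78 ± 0.51 (edgeR adjusted p = 0.429). Of 14 tested Schwann cell genes, S100b alone passed with a positive slope, while Ncam1, a neural cell adhesion molecule, had -0.36 ± 0.10 and Ptprz1, a receptor phosphatase, had -0.41 ± 0.09. Of 13 tested peripheral myelin genes Mbp alone passed. All 10 smooth muscle genes passed with a negative slope, at a median of -0.34.

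Npy1r ran the other way, with a slope of -0.41 ± 0.12 that narrowly missed the threshold (edgeR adjusted p = 0.0549). It passed without WT nicotine 11 (slope -0.38, edgeR adjusted p = 0.0498) and without WT nicotine 12 (slope -0.36, edgeR adjusted p = 0.00106). The adjusted p ranged up to 0.254, without KO nicotine 5.

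**Figure D4:**
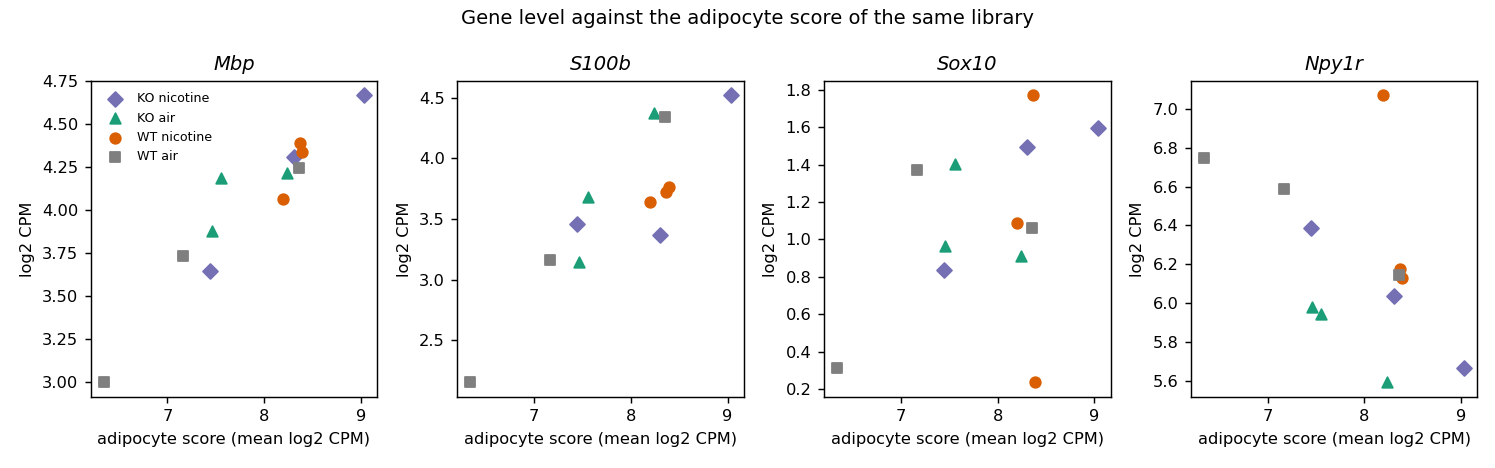
Log2 CPM of Mbp, S100b, Sox10 and Npy1r in each of the 12 libraries (vertical) against the adipocyte score of that library (horizontal, mean log2 CPM of 11 genes). Mbp and S100b climb with the score from WT air 9 at 6.34 to KO nicotine 4 at 9.03, Sox10 is scattered, and Npy1r declines in both genotypes, apart from WT nicotine 12.

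**Figure D5:**
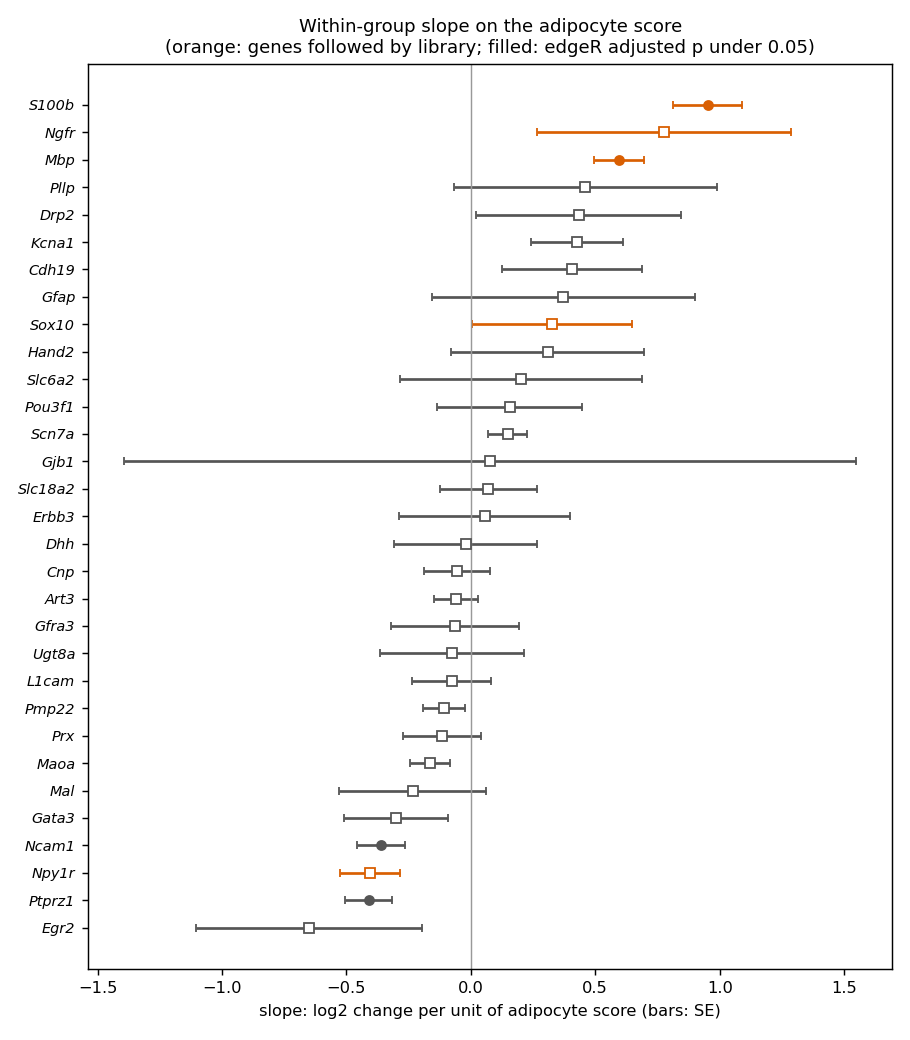
Within-group slope on the adipocyte score (points, with SE bars) of tested Schwann cell, myelin, noradrenergic and neuropeptide Y receptor genes, filled where the edgeR adjusted p was under 0.05. S100b (0.95) and Mbp (0.60) are filled on the positive side and Ncam1 (-0.36) and Ptprz1 (-0.41) on the negative side.

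The genes whose levels were most like each of these across the 12 libraries were named as a description, from Pearson's r of log2 CPM over 13577 candidate genes with a mean of at least 1 CPM. The libraries share depth differences, tissue content and group, and no p is attached. For Mbp the nearest were Cebpa (r = 0.978), a transcription factor of fat cells, the lipase gene Lipe (0.977), Slc44a3 (0.970), the lipid droplet gene Plin1 (0.966) and Acacb (0.954), an acetyl-CoA carboxylase. For S100b they were Pcca (0.975), Pdhb (0.949), Ldha (0.948), Dbi (0.947) and Dlat (0.945). For Sox10 they were Nipsnap3b (0.890), Polrmt (0.886), Jtb (0.868), Tarbp2 (0.828) and Apmap (0.823). For Npy1r they were Sept8 (0.948), Pik3ca (0.944), Dlgap4 (0.938), Cyth3 (0.936) and Eif3d (0.931). For Ngfr, measured from few reads, they were Rufy4 (0.934), Ccnt2 (0.897), Gm5113 (0.888), Mrpl33 (0.877) and Edf1 (0.876).

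Among the 5 tested genes, Mbp and S100b were alike (r = 0.85), with S100b at rank 262 among the candidates for Mbp. Mbp and Sox10 had r = 0.55, and S100b and Sox10 had r = 0.38. Npy1r was negatively related to Mbp (r = -0.61) and S100b (r = -0.60).

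Among the other nerve genes, none was called in any comparison of groups. The Schwann cell list had 14 of 18 genes tested, with a median log2 fold change for nicotine of 0.083 in KO and -0.10 in WT, beside 0.0095 in KO and -0.0047 in WT over all genes. Its most abundant genes were Ncam1 (559 CPM), Ptprz1 (246 CPM), the sodium channel gene Scn7a (89.8 CPM) and Art3 (56.7 CPM). They lay far above Sox10 (2.06 CPM), and which cells their RNA came from was not tested. On the myelin list, 13 of 17 genes were tested and the median was 0.18 in KO and 0.080 in WT. Its most abundant genes beside Mbp were Pmp22 (101 CPM), Egr2 (18.2 CPM) and Cnp (15.7 CPM). Egr2, a transcription factor of myelination that also belongs to the immediate early genes induced by stress and growth signals, averaged 6.57 CPM in KO nicotine and 11.6 CPM in KO air, and 48.3 CPM in WT nicotine and 6.24 CPM in WT air. Its log2 fold change in WT was 2.95 ± 0.64 (edgeR adjusted p = 0.238), and in KO it was -0.81 ± 0.63 (edgeR adjusted p = 0.878). Of 12 immediate early genes, Egr2 among them, 5 were above 0 in KO and 12 in WT, beside 51.5% of all genes in KO and 49.4% in WT.

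Of the neuron and axon genes, 5 of 15 were tested, led by Uchl1 (39.9 CPM), Stmn2 (4.97 CPM), Syp (4.69 CPM) and Tubb3 (0.930 CPM). Their median log2 fold change with nicotine was 0.40 in KO and -0.12 in WT, and none was called. Uchl1, a ubiquitin hydrolase of neurons, had a negative slope on the adipocyte score (-0.41 ± 0.09, edgeR adjusted p = 0.00858). Sensory nerve genes were close to 0: Calca, which encodes the vasodilator peptide CGRP, had 13 counts in all and Tac1, the substance P gene, had 7. The pain fibre channel genes Trpv1 and Scn10a averaged 0.881 and 0.316 CPM, and the neuronal nitric oxide synthase gene Nos1 averaged 1.32 CPM. Of the 9 sensory and other nerve genes only Trpv1 and Nos1 were tested, with log2 fold changes for nicotine of 0.83 ± 0.97 (Trpv1) and 0.99 ± 0.61 (Nos1) in KO and 1.41 ± 0.94 (Trpv1) and 0.36 ± 0.61 (Nos1) in WT. Their median was 0.91 in KO and 0.88 in WT, and neither was called.

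Of 19 genes of neurotrophic receptors and ligands 16 were tested and none was called. The most abundant were Ntrk3 (218 CPM), the sorting receptor gene Sort1 (192 CPM), Ntrk2 (110 CPM) and the neurotrophin-3 gene Ntf3 (35.0 CPM). Ntrk2, a receptor for brain-derived neurotrophic factor, had a positive slope on the adipocyte score (0.49 ± 0.07, edgeR adjusted p = 0.000142). The median log2 fold change of the list with nicotine was 0.046 in KO and 0.11 in WT.

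Markers of other cell types known to use these genes were also counted. Of 5 oligodendrocyte genes, which mark the myelin-forming glia of the brain, 1 passed the filter on low counts, with a list sum of 0.854 to 2.43 CPM. Of 7 melanocyte genes, a lineage that also uses Sox10, 2 passed and Tyrp1 had 0 counts, with a list sum of 34.5 to 52.8 CPM, most of it from Mitf. Of 8 cartilage cell genes, a tissue that also uses S100b, 5 passed, with a list sum of 93.8 to 178 CPM. Most of that sum came from Comp (mean 61.9 CPM) and Acan (mean 44.8 CPM). The cartilage genes Col2a1 and Matn1 had 25 and 3 counts in all. Their part in the levels of Sox10, S100b and Mbp was not tested.

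The authors' deposited table for KO listed the same 5 genes, with log2 fold changes for nicotine against air of 0.16 for Mbp, 0.06 for S100b, 0.25 for Sox10, 1.35 for Ngfr and 0.21 for Npy1r, all with an adjusted p of 0.997. In the authors' deposited table for WT the values were 0.53 for Mbp, 0.22 for S100b, 0.19 for Sox10, -0.84 for Ngfr and 0.02 for Npy1r, and the lowest adjusted p was 0.715, for Mbp. Th and Dbh were not listed in either of the authors' deposited tables.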

How the data were processed

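RNA of 12 thoracic aorta libraries was isolated with the RNeasy Plus kit and prepared with SMART-Seq v4, per the labels' protocols. Reads were counted per gene with HTSeq on the mouse build mm9, per the submitters' processing notes, and what the authors deposited are unscaled whole-number counts, with genes named by symbol. The aligner, the annotation and their versions were not given in the sources used here. Per the file headers, the authors also deposited, for nicotine against air in each genotype, a mean normalized count (signal), a log2 fold change with its standard error, a test score, and p-values before and after adjustment.

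Libraries were grouped by their labels. Library numbers are unique, so nothing was paired. Pairs of libraries within a group differed by more than counting noise (chi-square per degree of freedom 8.28 to 68.6 over 12 pairs). Genes were filtered with filterByExpr (14621 of 27933 kept), scaled by TMM and fitted with the robust quasi-likelihood model of edgeR 4.0.16, with a mean for each of 4 groups and 8 degrees of freedom left, adjusting p by Benjamini-Hochberg over all genes tested and calling at 0.05. Each standard error was obtained by dividing the size of the log2 fold change by the root of F. The log2 CPM used a prior count of 2. The slope on the adipocyte score came from the same model with the score added. The procedure was tested on simulated data. For nicotine against air in WT it picked up 49 of 100 planted 2-fold differences and 78 of 100 planted 4-fold differences. Both sizes were planted in the same simulated data, where the procedure called 4 genes in error in all. Of 200 planted slopes of 0.5 on the adipocyte score it picked up 24, and it called 1 gene in error. A gene that did not pass can therefore still differ. Exon lengths come from GENCODE vM21, promoters and neighbouring genes from RefSeq GRCm38.p6, while the counts were made on mm9.

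The genes and lists were chosen with earlier results of these data known. The 7 genes are given in every library. Of each nerve list the text names genes called in a comparison of groups and the 4 with the highest mean CPM, and for each tested gene the 5 with the highest Pearson correlation. A few genes that this would name are left out of the text and figures. Slc6a2, Ddc, other markers named for a low count and the genes named for their slope were added after their values were seen. Alternatives were DESeq2 1.42.0 and its size factors, no filter, the adipocyte covariate, only the groups compared and leaving out each library. The software was R 4.3.3 with Python 3.11.15 (numpy 2.4.6, pandas 2.3.3, matplotlib 3.10.9).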

Additional observations from a re-analysis of the deposited data

How the results depend on the processing

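In every alternative run, the number of these genes called between groups stayed at 0 in each of the 7 comparisons. Of 456 values of single genes under the other settings listed for the comparisons of groups, 409 kept their direction and 47 turned it, and none passed the threshold. The adipocyte covariate turned 11 log2 fold changes. For nicotine in KO they were -0.19 (Mbp) and -0.42 (S100b). For nicotine in WT they were -0.0031 (Mbp), -0.12 (Sox10) and -0.49 (S100b). Averaged over genotypes they were -0.098 (Mbp), -0.037 (Sox10), -0.46 (S100b) and -0.27 (Ngfr), and for the interaction 0.071 (S100b) and -0.041 (Npy1r). The cause was not tested.

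Leaving out each library in turn gave values of both signs. For nicotine in KO they ran from -0.088 to 0.40 (Mbp) and -0.41 to 0.45 (S100b). For nicotine in WT they ran from -0.26 to 0.54 (Sox10), -0.16 to 1.01 (S100b), -1.25 to 0.00049 (Ngfr) and -0.35 to 0.20 (Npy1r). For the interaction they ran from -0.28 to 0.51 (Sox10), -0.95 to 0.22 (S100b) and -0.012 to 0.57 (Npy1r). For nicotine averaged over genotypes they ran from -0.0019 to 0.40 (Sox10), -0.092 to 0.53 (S100b) and -0.067 to 0.21 (Npy1r). For KO against WT in nicotine they ran from -0.26 to 0.22 (Mbp), -0.14 to 0.66 (Sox10) and -0.30 to 0.38 (S100b), and in air from -0.12 to 0.41 (Sox10), -0.046 to 1.12 (S100b) and -1.12 to 0.14 (Ngfr). Of 70 values of the slope on the adipocyte score, added after the data were seen, 68 kept direction and side of the threshold, and the slope of Npy1r ran from -0.48 to -0.36.

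The background of genes called depended on the tool and on single libraries. For nicotine in WT it was 3 genes, against 7 with DESeq2 size factors, 21 with no filter, 115 with the DESeq2 test and 0 with the adipocyte covariate or the WT libraries alone, and leaving out 1 library gave 34 (WT air 8), 14 (WT nicotine 12), 4 (WT air 10), 1 (WT nicotine 6) and 0 (WT air 9, and WT nicotine 11). Nicotine averaged over genotypes had 38 when WT air 8 was left out and at most 4 when another library was. KO against WT in nicotine ran from 0 to 4. For KO against WT it was 1 gene in nicotine and 0 in air, against 74 in nicotine and 13 in air with the DESeq2 test. The counts of 0 for the interaction, nicotine averaged and KO against WT averaged became 9, 91 and 107 with it. For the adipocyte slope it was 1406 genes, against 582 without WT air 8 and 755 without KO nicotine 5. None of these calls between groups was one of the 7 genes.

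No paired analysis was possible because the groups share no library number. With 3 libraries a group and at most 22 reads of Ngfr, 5 of Th and 2 of Dbh in a library, differences in these 3 genes were not detectable unless large. The 95% intervals for nicotine against air also held a doubling of S100b and of Sox10. On the log2 scale they reached 1.19 (S100b) and 1.26 (Sox10) in KO and 1.37 (S100b) and 1.21 (Sox10) in WT.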
